A study of Mus musculus with 6 samples.

Results

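MYC family transcription factors were followed in mouse hearts after heat stroke (HS). The group comprised 10 genes of 57180 in the deposited table: Mycn, Myc, Mycl, Max, Mxd1, Mxd4, Mxi1, Mnt, Mlx and Mlxip. They were found by gene symbol, and their 53 transcript rows were summed per gene. The genes were chosen with their HS and sham values in these same hearts already known, so the differences in level of the family genes below are a description and carry no test.

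Myocardial RNA came from 6 male C57BL/6N mice, an inbred strain, aged 6 to 8 weeks, with 1 library per heart. The 3 HS mice were heated in a chamber at 40 °C (humidity 60 to 65%) to a core temperature of 42 °C and then moved to room temperature to recover. The 3 sham mice stayed at 22 to 25 °C, and both groups went without food and water. The time between 42 °C and collection is not given in the sources used here, and the submitters' extraction text speaks of cell lines although the tissue is labelled heart. Nothing states a litter, day or batch, so the spread between hearts may be in part technical.

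MYC proteins are transcription factors that bind DNA only as dimers with MAX and recruit acetyltransferases and elongation factors to genes for ribosome production, nucleotide and polyamine synthesis and the cell cycle. MXD1, MXD4, MXI1 and MNT compete for MAX and bring the SIN3 corepressor to the same E-box sequence. MLX forms a parallel arm with MLXIP, also called MondoA, which responds to glucose phosphates. In the heart, MYCN drives proliferation of embryonic cardiomyocytes, and MYC is induced by growth and stress signals in the adult.

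The sequences below show where the family can meet its own genes. The E-box searched was CACGTG, which reads the same on both strands, in the 300 bases from 250 before to 50 after each RefSeq gene start (GRCm38.p6). A promoter was found for 9 of the 10 genes, and 4 of these, or 44.4%, held the E-box, against 8.09% of 27025 genes with a promoter in the table. The stretches of 40 bases around it are given 5′ to 3′ on the gene's strand, with the E-box in capitals.

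Max, chr12:76962229-76962268, minus strand, E-box starting 3 bases before the gene start: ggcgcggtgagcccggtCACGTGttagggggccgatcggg

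Mlx, chr11:101087233-101087272, plus strand, E-box starting 40 bases before the gene start: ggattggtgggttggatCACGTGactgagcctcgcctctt

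Mnt, chr11:74830784-74830823, plus strand, E-box starting 123 bases before the gene start: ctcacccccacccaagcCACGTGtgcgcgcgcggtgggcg

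Mxd4, chr5:34187907-34187946, minus strand, E-box starting 219 bases before the gene start: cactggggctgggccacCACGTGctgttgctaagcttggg

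Mycn, the gene with the largest difference below, had no E-box in this window. It held the letters TTTGGCGC, of the kind bound by E2F cell cycle factors, at 2 places that start 183 and 168 bases before the gene start. At least 2 matches on either strand occurred in 2 of 27025 genes (0.0074%), and at least 1 match in 0.585%. These letters were picked after the sequence had been seen, so the share is a description of this promoter. The stretch is shown with both matches in capitals.

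Mycn, chr12:12941977-12942039, minus strand: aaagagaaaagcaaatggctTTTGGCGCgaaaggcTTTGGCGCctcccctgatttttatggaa

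The core of the heat shock element, searched as GAANNTTC on both strands, was present in 9.04% of all genes and in 1 of the 9 family promoters, that of Mlx. A match is a run of letters, and binding was not measured.

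Totals per heart ran from 22098516 to 25855914 estimated counts, and levels are counts scaled to a common library size (CPM, the counts in each 1000000) after TMM scaling, a correction for differences in library composition. In these libraries 3 counts correspond to 0.108 to 0.152 CPM. The heart label was borne out by ventricular cardiomyocyte markers, which summed to 37110 to 48090 CPM in HS hearts and 42730 to 44320 CPM in sham hearts. HS hearts 1 and 3 stood apart from the rest by atrial genes. The 8 atrial markers summed to 3901, 349 and 2944 CPM in HS hearts 1 to 3, against 278 to 304 CPM in sham hearts. The 10 fibroblast markers summed to 828 to 1910 CPM in HS hearts and 686 to 812 CPM in sham hearts. The sum of the 9 smooth muscle and pericyte markers was 1246 to 1554 CPM in HS hearts and 1061 to 1129 CPM in sham hearts. Without overlap, 1 of 6 tested atrial, 5 of 10 fibroblast and 2 of 9 smooth muscle and pericyte markers were higher in HS hearts. In the same order 0, 0 and 1 were lower. Of the 9 ventricular markers, 0 were higher and 3 (33.3%) were lower in HS hearts without overlap. Of all tested genes, 11.0% were higher and 10.9% lower without overlap. HS heart 3 differed most from the sham hearts, by 0.55 to 0.57 on the log2 scale on average over genes, against 0.233 to 0.265 among sham hearts. These features move with group, so values are also given for HS heart 2 and for a fit that drops HS hearts 1 and 3 and keeps a single HS heart. HS heart 2 was not matched to the sham hearts in every marker set. The 5 erythroid markers summed to 154, 616 and 1548 CPM in HS hearts 1 to 3, against 136.5 to 316.1 CPM in sham hearts. The 5 adipocyte markers summed to 49.2, 0.987 and 9.15 CPM in HS hearts 1 to 3, against 0.252 to 2.91 CPM in sham hearts. The part of all these features in the results was not tested.

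Of the 10 genes, 9 passed the filter on low counts and Mycl did not. Mycn was lower and Mxd1 was higher in every HS heart than in any sham heart, and the other 7 tested genes overlapped between the groups. Over all 14717 tested genes, 10.9% were lower and 11.0% were higher without overlap. With the quasi-likelihood test of edgeR and Benjamini-Hochberg adjustment over all genes, 0 of the 9 genes passed an adjusted p of 0.05, where 0.0544% of all genes passed as higher and 0.00679% as lower. At an unadjusted p under 0.05 there were 1 higher (Mxd1; 8.83% of all genes) and 1 lower (Mycn; 4.76%). DESeq2 called the same pair at an adjusted p under 0.05, beside 1.87% of all genes higher and 0.523% lower. The genes were chosen on this contrast, so nothing is read from these counts.

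**Figure D1:**
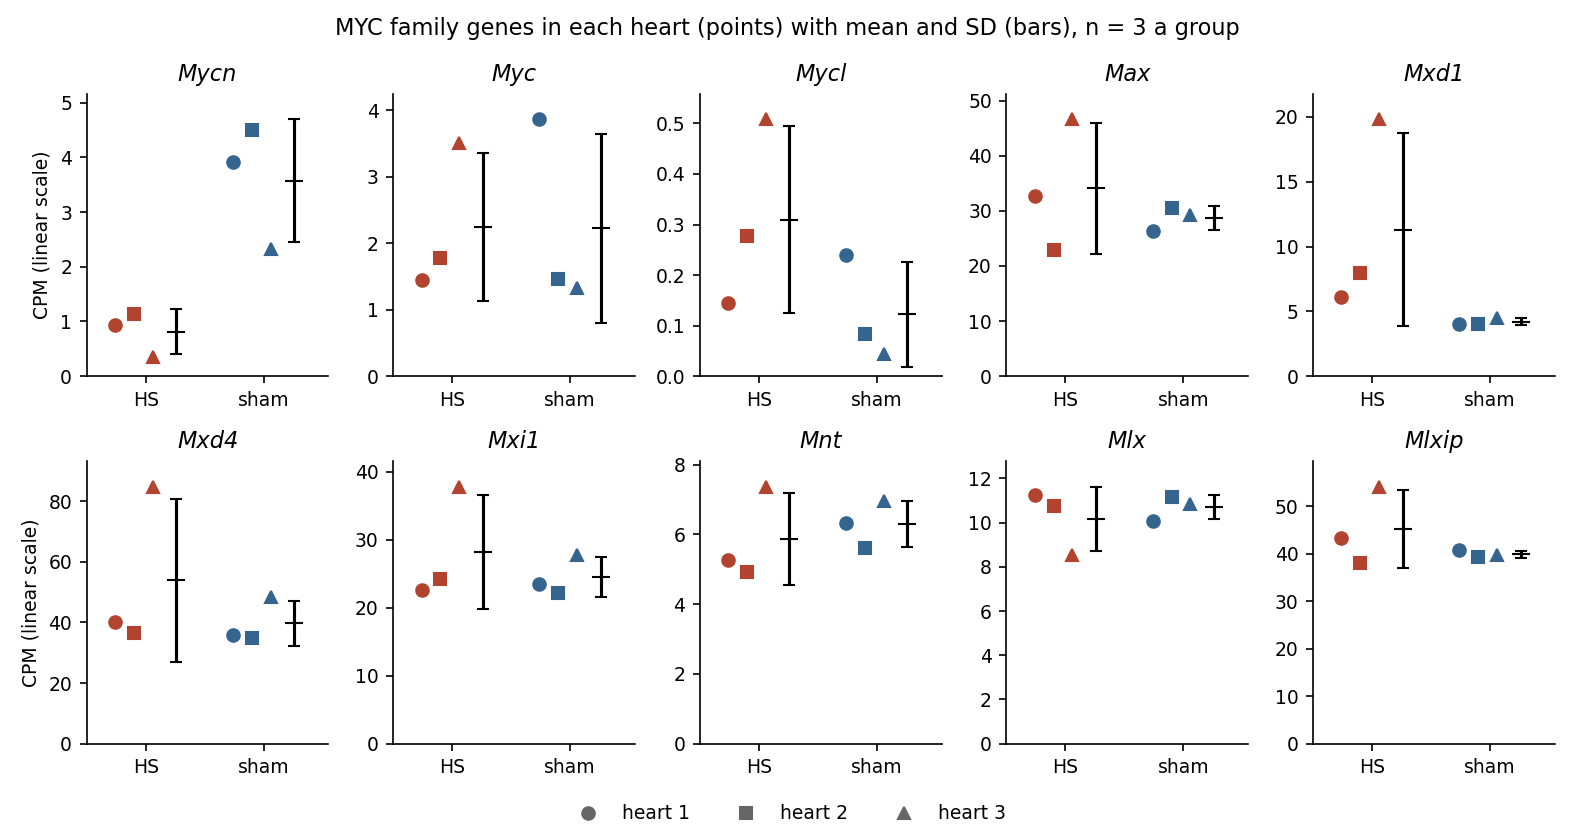
Level of each of the 10 MYC family genes in CPM on a linear axis from 0, HS hearts on the left of each panel and sham hearts on the right, with the mean and SD of 3 hearts beside the points. Mycn lies at 0.356 to 1.14 CPM in HS hearts and 2.32 to 4.49 CPM in sham hearts, and the high point of Mxd1, Mxd4, Max and Mxi1 is HS heart 3.

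Mycn, the paralog named for its amplification in neuroblastoma, was measured at 0.938, 1.14 and 0.356 CPM in HS hearts 1 to 3, against 3.91, 4.49 and 2.32 CPM in sham hearts 1 to 3. The groups did not overlap, and the lowest sham heart was above the highest HS heart. These values rested on 26, 29 and 7 counts in HS hearts and 98, 107 and 54 counts in sham hearts. The mean was 0.813 ± 0.409 CPM in HS hearts and 3.57 ± 1.124 CPM in sham hearts (SD, n = 3 each), 4.39-fold lower in HS. The fitted log2 fold change was -2.10 ± 0.43 (SE). It was -1.64 in the fit without HS hearts 1 and 3, which keeps HS heart 2 as the only HS heart.

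The Mycn reads were also assigned to different transcripts. Mycn-201 has 3 exons, and Mycn-202 starts 1298 bases downstream, inside the first intron of Mycn-201, and has the same coding length of 1386 bases. Mycn-202 took 0, 36.7 and 100% of the estimated counts of the gene in HS hearts 1 to 3 and 0% in every sham heart. The counts behind this were 0, 10.6 and 7 in HS hearts and 0 in each sham heart, against 26, 18.4 and 0 for Mycn-201 in HS hearts and 98, 107 and 54 in sham hearts. The shares overlapped because HS heart 1, like the sham hearts, had no counts of Mycn-202. An exact two-sided permutation test of the shares gave p = 0.4 (0.756 after adjustment over 17 transcripts). The gene lies on chr12:12936093-12941914, minus strand.

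Mxd1 encodes the MAX partner that rises as many cell types stop dividing and mature. It was measured at 6.10, 7.98 and 19.8 CPM in HS hearts 1 to 3, against 4.03, 4.03 and 4.51 CPM in sham hearts. All HS hearts were above all sham hearts, and HS heart 3 was far above the other two HS hearts. The mean was 11.3 ± 7.44 CPM in HS hearts and 4.19 ± 0.278 CPM in sham hearts (SD, n = 3 each), and the log2 fold change was 1.42 ± 0.44 (SE). Without HS heart 3 it was 0.75, and without HS hearts 1 and 3 it was 0.93. The value thus depended on HS heart 3 for much of its size and kept its sign without that heart.

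Mxd1 was nearly all the coding transcript Mxd1-201, with 97.0, 90.1 and 98.0% in HS hearts and 98.5, 100 and 100% in sham hearts. The remainder in HS hearts was Mxd1-204, annotated as a retained intron. It had 5, 20 and 8 counts in HS hearts and 0 counts in every sham heart, where 3 counts is the limit that a count of 0 allows. The gene lies on chr6:86647042-86669161, minus strand.

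**Figure D2:**
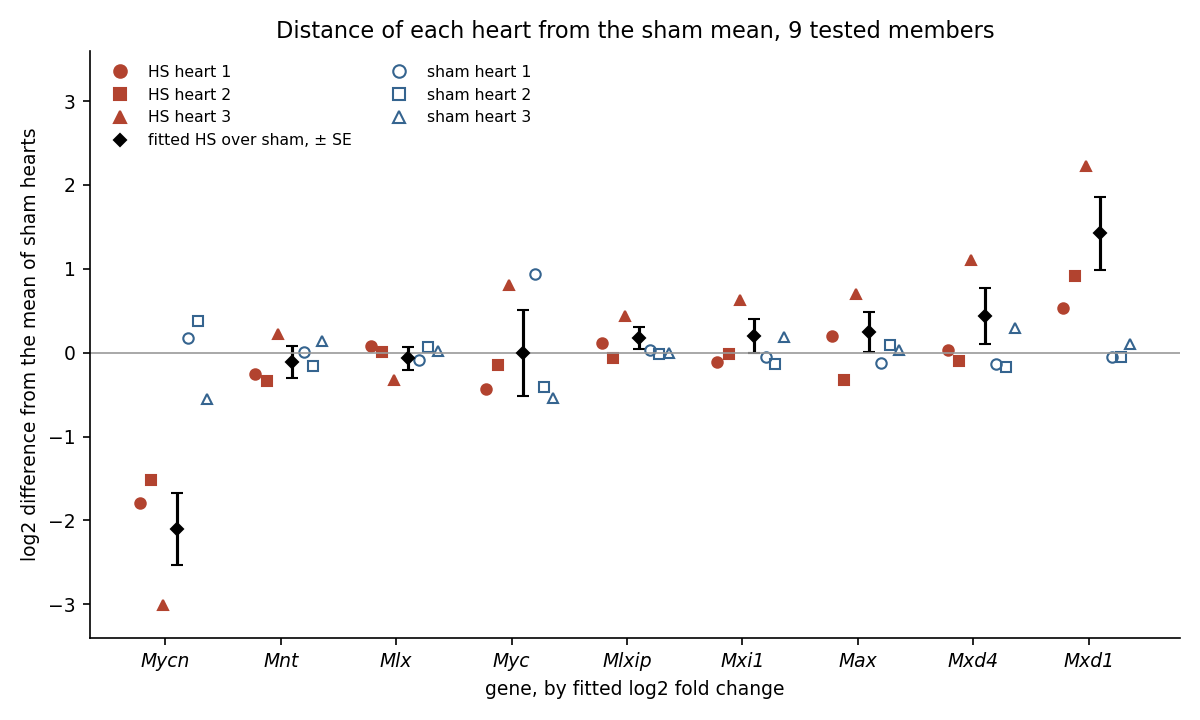
Log2 difference of each heart from the mean of the sham hearts for the 9 tested genes, HS hearts as filled red points, the fitted log2 fold change with its SE as black diamonds and sham hearts as open blue points. Mycn lies at -1.79, -1.52 and -3.01 and Mxd1 at 0.54, 0.92 and 2.22 in HS hearts 1 to 3.

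Myc encodes c-MYC, the most widely expressed paralog in dividing tissue. Its level was 1.44, 1.78 and 3.51 CPM in HS hearts 1 to 3, against 3.87, 1.47 and 1.33 CPM in sham hearts 1 to 3. Sham heart 1 was the highest of all 6 hearts, and the groups overlapped. The log2 fold change was -0.01 ± 0.51 (SE), and it was 0.66 without sham heart 1 and -0.47 without HS heart 3. It was also above 0 without HS heart 1 (0.23) and without HS heart 2 (0.12), and close to 0 with DESeq2 (0.00) and limma-voom (0.01), so no direction is given. The transcripts Myc-201 and Myc-205 have the same sequence in GENCODE vM21 and the same counts in every heart, so they cannot be told apart by reads.

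Mycl, the paralog first found in small cell lung cancer, was near the limit of the data. It had 4, 7 and 10 counts in HS hearts and 6, 2 and 1 counts in sham hearts, or 0.144 to 0.508 CPM and 0.0429 to 0.239 CPM. The groups overlapped at this depth, and no fold change is given.

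Max encodes the partner that all MYC and MXD proteins need. It was measured at 32.7, 22.8 and 46.6 CPM in HS hearts and 26.4, 30.5 and 29.2 CPM in sham hearts. HS hearts lay on both sides of the sham hearts, and the log2 fold change was 0.25 ± 0.24 (SE). It was -0.33 without HS hearts 1 and 3, a change of sign.

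Max has a pair of main transcripts, and Max-202 holds an exon of 27 bases that Max-201 lacks. The encoded proteins are known as the long and short forms of MAX. The transcripts are 1942 (Max-202) and 1926 (Max-201) bases long, so they also differ outside this exon. Their shares therefore do not measure this exon alone. The exon is on chr12:76961263-76961289, minus strand, and is given in capitals with 15 bases of the spliced transcript on each side.

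Max-202: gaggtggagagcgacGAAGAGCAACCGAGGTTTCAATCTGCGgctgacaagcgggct

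Max-202 made up 61.9, 66.1 and 64.8% of the counts of Max in HS hearts 1 to 3, against 65.3, 62.1 and 72.3% in sham hearts. The mean was 64.3 ± 2.14% in HS hearts and 66.6 ± 5.21% in sham hearts (SD, n = 3 each). The shares overlapped, and the difference between the means was smaller than the SD of the sham hearts. An exact two-sided permutation test gave p = 0.6 (0.927 after adjustment over 17 transcripts), where 3 hearts against 3 cannot go below 0.1.

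The other MAX partners differed less. Mxd4 was the most abundant of them, at 40.2, 36.6 and 84.7 CPM in HS hearts and 35.8, 34.9 and 48.3 CPM in sham hearts. Mxi1 was at 22.6, 24.2 and 37.8 CPM in HS hearts and 23.5, 22.2 and 27.8 CPM in sham hearts. In both genes HS heart 3 was the highest and HS hearts 1 and 2 lay within the sham range. The log2 fold change was 0.44 ± 0.33 for Mxd4 and 0.20 ± 0.21 for Mxi1 (SE), and both were below 0 without HS heart 3.

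Mnt, the MAX partner that is present in resting and dividing cells alike, was at 5.27, 4.94 and 7.37 CPM in HS hearts and 6.34, 5.62 and 6.96 CPM in sham hearts. Its log2 fold change was -0.11 ± 0.19 (SE). HS hearts 1 and 2 were below every sham heart and HS heart 3 was above them.

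In the MLX arm the spread was narrow. Mlx was at 11.3, 10.7 and 8.54 CPM in HS hearts and 10.1, 11.2 and 10.8 CPM in sham hearts, with a log2 fold change of -0.07 ± 0.14 (SE). Mlxip was at 43.4, 38.1 and 54.1 CPM in HS hearts and 40.7, 39.4 and 39.7 CPM in sham hearts, with a log2 fold change of 0.18 ± 0.13 (SE). HS heart 3 was the lowest of 6 for Mlx and the highest of 6 for Mlxip. The 7 genes other than Mycn and Mxd1 had log2 fold changes of -0.11 to 0.44.

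Levels between genes were compared per length, as TPM, counts per base of transcript scaled to a sum of 1000000, computed from the estimated counts and GENCODE vM21 transcript lengths. Max was highest, with a mean of 23.8 TPM in HS hearts and 20.6 TPM in sham hearts. Its range met those of Mxd4 and Mxi1 in HS hearts only. Mxd4 (17.6 TPM in HS and 13.7 in sham hearts) and Mxi1 (14.9 and 13.6) followed, and their ranges overlapped within each group. Mlxip and Mlx came next, with 9.89 and 7.87 TPM in HS hearts and 8.86 and 8.43 TPM in sham hearts, also with overlapping ranges. Below these the order differed between the groups. In HS hearts Mxd1 had a mean of 3.16 TPM, Mnt 1.67, Myc 1.41, Mycn 0.425 and Mycl 0.119, and the ranges of Mnt and Myc overlapped, as did those of Mycn and Mycl. In sham hearts Mnt had 1.87 TPM, Mycn 1.83, Myc 1.45, Mxd1 1.25 and Mycl 0.0731, and each of the first 3 overlapped with the next in this order.

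The balance of the MAX partners followed from these levels. Mycn made up 33.5, 29.8 and 7.00% of the summed TPM of Myc, Mycn and Mycl in HS hearts 1 to 3, against 43.2, 70.7 and 55.0% in sham hearts, without overlap. The sum of the 3 paralogs was 1.57, 1.96 and 2.33 TPM in HS hearts and 4.75, 3.25 and 2.07 TPM in sham hearts, and overlapped because of HS heart 3 and sham heart 3. The sum of Mxd1, Mxd4, Mxi1 and Mnt was 20.9, 15.0 and 21.3 times that of the MYC paralogs in HS hearts and 6.20, 8.41 and 16.6 times in sham hearts. HS heart 2 was below sham heart 3 in this ratio.

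Of the 53 transcript rows, 40 had a count and 17 from 8 genes took at least 5% of a gene with a mean of at least 50 counts. In 1 of the 17, Mxd1-201, the shares did not overlap and were lower in HS hearts, and in 0 they were higher. Over all 21429 transcripts of all genes that met the same limits, 7.95% were lower and 6.92% were higher without overlap. Groups of 3 cannot give an exact permutation p below 0.1.

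**Figure D3:**
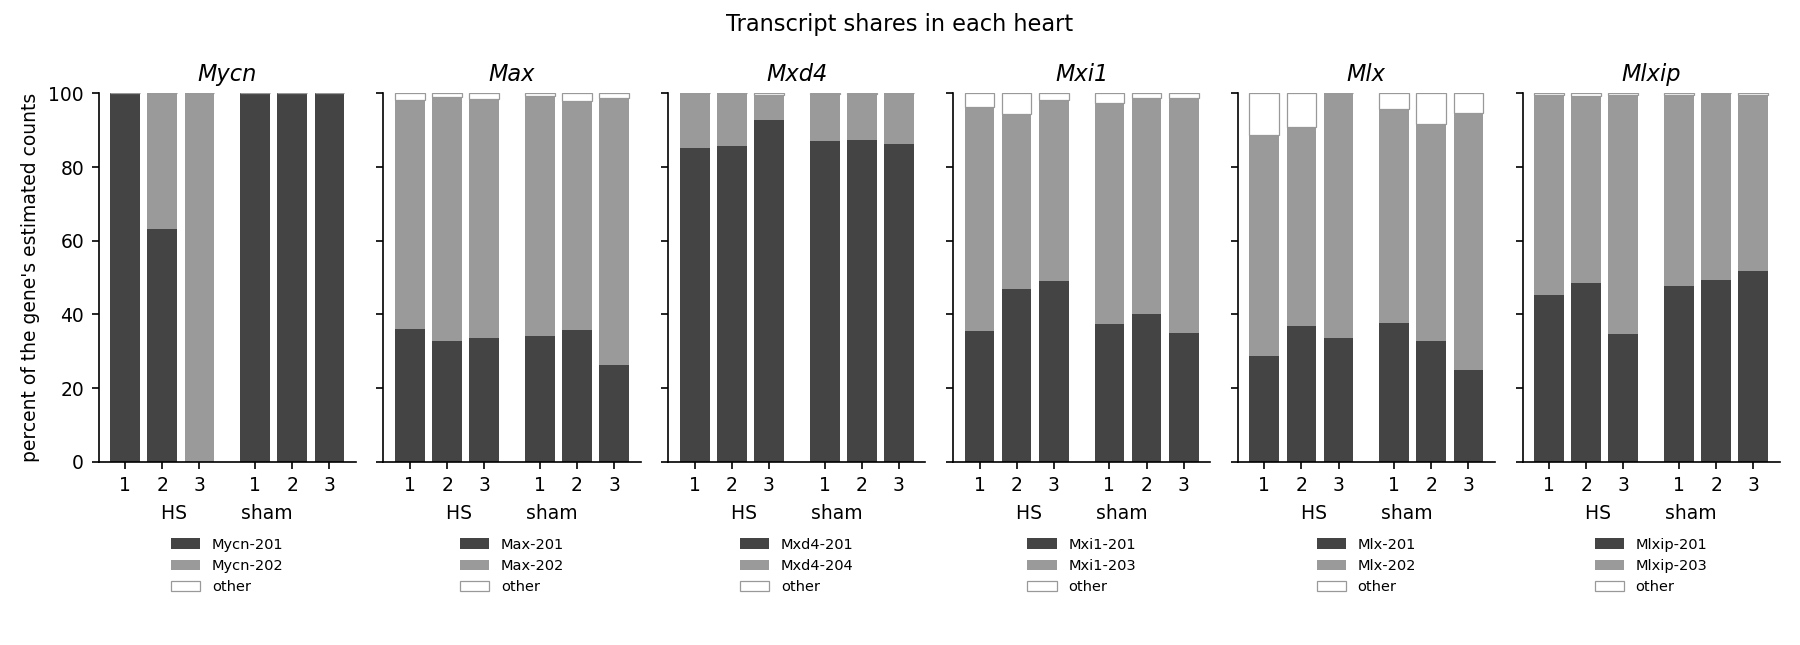
Share of the estimated counts of each gene, in percent, taken by its main transcripts in each of 3 HS hearts on the left of each panel and 3 sham hearts on the right. Mycn-202 appears in HS hearts 2 and 3 only, and the shares of Mycn, Max, Mlx, Mxi1, Mlxip and Mxd4 all overlap between the groups.

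Mxi1 has alternative starts that lie 18895 bases apart, and the transcripts from them share 4 exons. The upstream one, Mxi1-201, took 35.4, 46.9 and 49.1% in HS hearts, against 37.5, 40.2 and 34.9% in sham hearts. HS hearts 2 and 3 were above every sham heart and HS heart 1 was not (exact permutation p = 0.3, adjusted p = 0.729). Mlxip-203, a form annotated for nonsense-mediated decay, took 54.3, 50.8 and 64.8% of Mlxip in HS hearts and 51.9, 50.8 and 47.7% in sham hearts (exact permutation p = 0.2, adjusted p = 0.68). Estimated counts of overlapping transcripts depend on how reads were divided among them. The retained intron Mxd4-204 took 14.8, 14.4 and 6.90% of Mxd4 in HS hearts and 12.6, 12.4 and 13.8% in sham hearts, with the low value in HS heart 3.

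The genes whose 6 values lay nearest to those of Mycn were found by the root mean square difference of log2 distances from the sham mean over 6 hearts, among 10852 protein-coding genes. They were Aplnr, Sox18, Ucp3, Ift70a1 and Gpr22, with differences of 0.42, 0.50, 0.61, 0.69 and 0.70. Aplnr, the apelin receptor, was at 15.0, 15.99 and 3.36 CPM in HS hearts, against 37.3, 31.7 and 27.9 CPM in sham hearts. Sox18, a transcription factor of vascular endothelium, was at 5.38, 4.94 and 3.36 CPM in HS hearts and 14.7, 14.5 and 10.9 CPM in sham hearts. Ucp3 encodes a mitochondrial carrier of muscle. The 12 endothelial markers summed to 675 to 979 CPM in HS hearts and 681 to 790 CPM in sham hearts and overlapped. Their log2 fold changes were above 0 in 9 and below 0 in 3, with a median of 0.04. At an unadjusted p under 0.05 with edgeR, 2 were lower (Cldn5 and Egfl7) and 0 were higher, beside 4.76% and 8.83% of all genes. In RNA of heart tissue with many cell types, fewer cells of a type and less RNA per cell cannot be told apart.

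The pathway around the family was described with 6 gene lists. None of their genes passed an adjusted p of 0.05 with edgeR, so counts at an unadjusted p under 0.05 and of genes whose groups did not overlap are given. DESeq2 called 2 genes over all 6 lists. The median log2 fold change of all tested genes was 0.01.

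The largest list held genes that MYC raises in many cells, mostly for ribosome assembly. The median log2 fold change of the 61 tested genes was -0.14, with 44 below and 17 above 0. In 15 genes (24.6%) HS hearts were lower than sham hearts without overlap, against the 10.9% of all genes given above, and in 1 (1.64%) they were higher. At an unadjusted p under 0.05, 4 were lower and 1 was higher, beside 4.76% and 8.83% of all genes, and DESeq2 called 0 at an adjusted p under 0.05. Nip7, needed for assembly of the large ribosomal subunit, was at 6.97, 7.23 and 5.74 CPM in HS hearts and 9.05, 8.81 and 9.06 CPM in sham hearts (log2 fold change -0.43 ± 0.14 SE, adjusted p = 0.294, edgeR). Cdk4, a kinase of the G1 phase, was at 17.4, 17.6 and 16.01 CPM in HS hearts and 20.0, 19.6 and 21.6 CPM in sham hearts (-0.26 ± 0.10 SE, adjusted p = 0.322, edgeR).

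The ribosome chaperone gene Grwd1 had a log2 fold change of -0.49 ± 0.18 (SE). Odc1, which encodes the first enzyme of polyamine synthesis, was the fourth lower gene. Slc3a2, part of an amino acid transporter, was the one higher gene, at 19.1, 19.4 and 31.9 CPM in HS hearts and 18.0, 16.6 and 14.4 CPM in sham hearts. The median differed between HS hearts: measured against the sham mean it was -0.12, 0.01 and -0.22 for HS hearts 1 to 3. HS heart 2 was below every sham heart in 18 of the 61 genes, close to the 29.3% of all genes for which this held. The E-box was present in 17 of the 51 of these genes with a promoter in the table, or 33.3%.

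**Figure D4:**
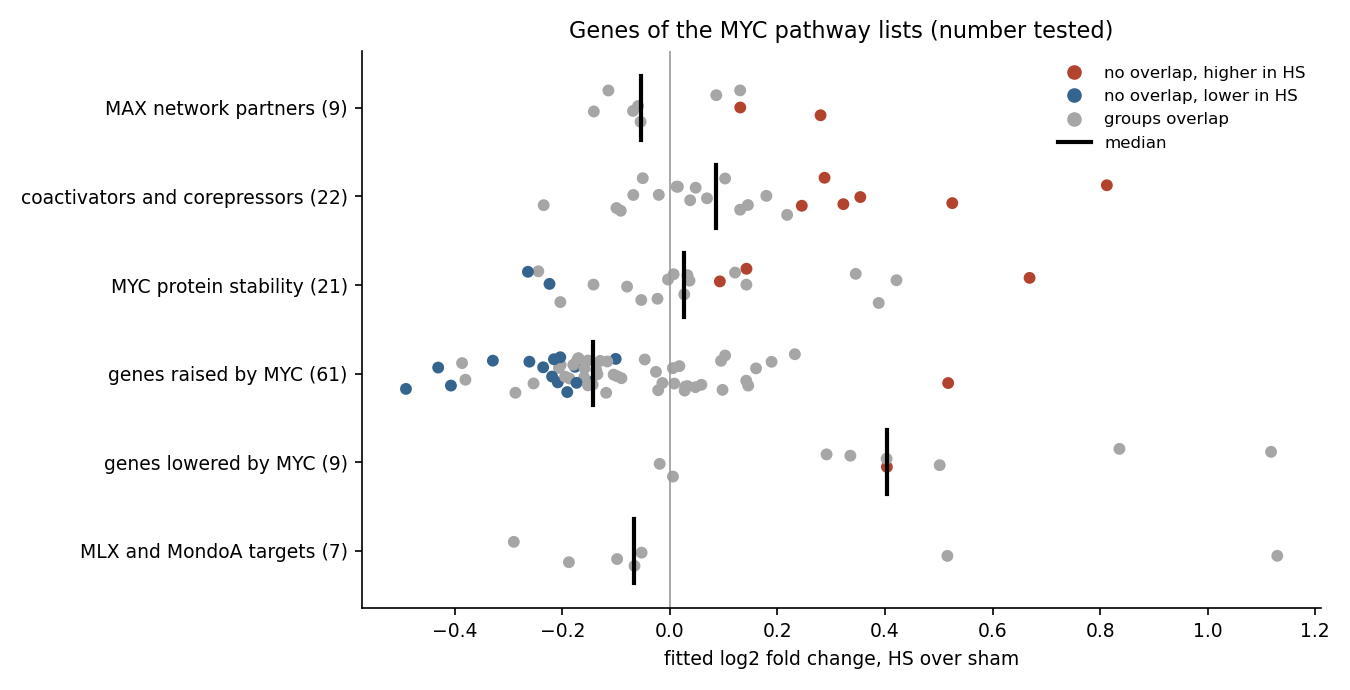
Fitted log2 fold change, HS over sham, of each tested gene in 6 lists of MYC pathway genes, with colour for groups that did not overlap and a black bar at the median. The median is -0.14 for genes raised by MYC and 0.40 for genes lowered by MYC, and 15 blue points mark genes raised by MYC that were lower in every HS heart.

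Genes that MYC lowers had a median log2 fold change of 0.40 over 9 tested genes, with 8 above 0. By heart this median was 0.09, 0.03 and 0.67 in HS hearts 1 to 3, so it lay mainly in HS heart 3. Gadd45a, a stress-induced growth arrest gene, was at 6.17, 8.13 and 8.29 CPM in HS hearts and 5.42, 5.88 and 5.75 CPM in sham hearts. Its log2 fold change was 0.40 ± 0.16 (SE, adjusted p = 0.34, edgeR). It was the only gene of the list at an unadjusted p under 0.05, beside 8.83% of all genes higher and 4.76% lower. Without overlap, 1 of the 9 (11.1%) was higher and 0 were lower, close to the 11.0% of all genes that were higher. Cdkn1a, which encodes the cell cycle inhibitor p21, was at 31.2, 41.4 and 216 CPM in HS hearts and 58.4, 50.2 and 23.8 CPM in sham hearts. HS heart 3 alone was high.

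Coactivators and corepressors of the family had 6 of 22 genes (27.3%) higher without overlap and 0 lower, beside 11.0% and 10.9% of all genes, with a median log2 fold change of 0.09. At an unadjusted p under 0.05, 6 were higher and 0 lower, beside 8.83% and 4.76% of all genes, Ep300, Crebbp, Ccnt1, Sin3a and Ep400 among them, and DESeq2 called Ep300 and Crebbp at an adjusted p under 0.05. Crebbp and Ep300 encode the paralogous acetyltransferases CBP and p300. Crebbp was at 34.3, 37.4 and 61.8 CPM in HS hearts and 24.6, 25.3 and 25.98 CPM in sham hearts, with a log2 fold change of 0.81 ± 0.22 (SE, adjusted p = 0.269, edgeR). Ep300 was at 50.3, 58.0 and 67.2 CPM in HS hearts and 41.7, 42.7 and 37.6 CPM in sham hearts, with a log2 fold change of 0.53 ± 0.12 (SE, adjusted p = 0.221, edgeR). Both were higher in HS heart 2 as well as in HS hearts 1 and 3. Ccnt1, the cyclin of the elongation factor P-TEFb, had a log2 fold change of 0.35 ± 0.11 (SE).

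Regulators of MYC protein stability had a median log2 fold change of 0.03 over 21 genes, with 3 higher (14.3%) and 2 lower (9.52%) without overlap, close to the 11.0% and 10.9% of all genes. At an unadjusted p under 0.05, 0 were higher and 1 was lower, beside 8.83% and 4.76% of all genes. Among further MAX network partners the median was -0.05 over 9 tested genes. Mycbp2, a large ubiquitin ligase named for its binding to MYC, was at 59.3, 64.0 and 72.4 CPM in HS hearts and 55.0, 52.8 and 53.4 CPM in sham hearts. It was the one gene there at an unadjusted p under 0.05, beside 8.83% of all genes higher and 4.76% lower. Without overlap, 2 of these 9 partners (22.2%) were higher and 0 were lower, beside 11.0% and 10.9% of all genes.

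Targets of the MLX arm had a median log2 fold change of -0.07 over 7 tested genes. Txnip, the best known target of MondoA, was at 278, 357 and 365 CPM in HS hearts and 649, 162 and 411 CPM in sham hearts, and the sham hearts enclosed the HS hearts. Pfkfb3, which encodes an activator of glycolysis, was at 12.2, 6.16 and 15.96 CPM in HS hearts and 4.19, 4.95 and 6.53 CPM in sham hearts. Its log2 fold change was 1.13 ± 0.35 (SE, adjusted p = 0.294, edgeR), and HS heart 2 lay within the sham range.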

How the data were processed

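RNA of 6 mouse hearts (3 HS, 3 sham) was sequenced after poly(A) selection, 1 library per heart. The authors used fastp and Hisat2 on the reads, with mm10 named in the submitters' processing notes, and deposited estimated counts for each transcript, neither scaled for depth nor pooled. How reads were assigned to transcripts, and with which annotation, is not given in the sources used here.

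Sums of these estimated counts over the 149132 transcripts gave 57180 genes, rounded to whole numbers. Groups come from the sample titles. The filter (filterByExpr, count of 10, total of 15) kept 14717 genes. TMM scaling was followed by the quasi-likelihood fit in edgeR (4.0.16, with robust estimation and group as its term), with p-values adjusted by Benjamini-Hochberg over all of them. The coefficient of biological variation was 0.204. An SE is the log2 fold change divided by the square root of its F statistic. Log2 CPM used a prior count of 2. Limits from 3 counts cover counting error only. TPM used the 92.0% of transcripts found in GENCODE vM21. R 4.3.3, limma 3.58.1, DESeq2 1.42.0, Python 3.11.15, scipy 1.17.1 and matplotlib 3.10.9 were used. The fits were tested on simulated data with known changes. Of 67 genes changed 4-fold, edgeR recovered 94%, DESeq2 94% and limma-voom 91%. Of 67 genes changed 2-fold, the shares were 58.2, 70.1 and 52.2% in the same order. Unchanged genes called at an adjusted p under 0.05 numbered 11 with edgeR, 41 with DESeq2 and 7 with limma-voom.

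The family genes, the lists, the rules and the alternatives were chosen with earlier results of these data known. All 10 family genes are named, with up to 3 higher and 3 lower genes of each list at the smallest unadjusted p under 0.05, and the 5 genes nearest to Mycn. Odc1, Txnip, Cdkn1a, Sin3a, Ep400, Cldn5 and Egfl7 were named after their values were seen. Some list genes are not reported here by name. Alternatives were other normalizations, other filters, DESeq2, limma-voom, edgeR without robust estimation, a replicate block, leaving out each heart, and leaving out HS hearts 1 and 3 together, which leaves 1 HS heart assumed to vary like the sham hearts. For transcript shares they were counts divided by length and stricter limits.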

Additional observations from a re-analysis of the deposited data

How the results depend on the processing

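Over all genes 9 were called at an adjusted p under 0.05, and the count was 16 with column totals only, 84 with no filter on low counts, 4 with at least 10 counts in every heart, 352 with DESeq2 and 129 without HS hearts 1 and 3. It ran from 2 to 287 when each heart was left out in turn, lowest without sham heart 3 and highest without HS heart 2. For the family genes the count was 0, against 1 (Mycn) with no filter and 2 (Mycn and Mxd1) with DESeq2, and 0 under the other alternatives. Mycn was not tested where every heart needed 10 counts, since HS heart 3 had 7. Its log2 fold change ran from -2.41 to -1.64 over 15 alternatives, and that of Mxd1 from 0.75 to 1.72 over 16, with no change of sign in either. The signs of Myc, Max, Mxd4, Mxi1, Mlx and Mlxip changed in 1 to 6 of 16 alternatives each, and that of Mnt in none. Among coactivators and corepressors 2 genes were called with DESeq2, 2 without HS hearts 1 and 3 and 0 to 1 when each heart was left out, the 1 without HS heart 3. Among MLX and MondoA targets 0 to 1 were called when each heart was left out, the 1 without HS heart 2. The count of transcript shares without overlap was 1, and it was 0 with counts divided by length, 0 with a gene mean of at least 200 counts and 1 to 5 when each heart was left out, highest without HS heart 1. The causes were not tested.

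HS and sham hearts share replicate numbers, and the correlations of same-numbered hearts' deviations from their group means were -0.06, 0.13 and 0.01. With 3 hearts a group these values cannot show whether same-numbered hearts shared a day or batch. With the replicate block 9 genes were called over all genes and 0 of the family genes, and none of the 3 HS hearts but heart 2 correlated best with its own number.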
